A study of Rattus norvegicus with 54 samples.

Results

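Bile acids are made from cholesterol in hepatocytes, and this synthesis is the main route by which cholesterol is broken down. *Cyp7a1* encodes the cholesterol hydroxylase that opens the classical pathway and limits its rate, *Cyp8b1* encodes the sterol hydroxylase that directs intermediates towards cholic acid, and *Cyp27a1* encodes the mitochondrial sterol hydroxylase that oxidizes the side chain and opens the alternative pathway. *Nr0b2* encodes SHP, an atypical nuclear receptor without a DNA-binding domain. SHP is induced when bile acids activate the receptor FXR, and in rodents it represses *Cyp7a1* and *Cyp8b1* by binding the receptors LRH-1 and HNF4α at their promoters. These 4 genes were taken by symbol from the gene name column, out of 19791 named genes on the array, and each was measured by 1 probe.

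Male Sprague-Dawley rats gave RNA from 3 tissues, the liver, the gastrocnemius muscle and the epididymal white fat, and each tissue had 6 groups of 3 arrays, 54 arrays in all. Rats received a high-fructose diet with nordihydroguaiaretic acid (HFrD-NDGA), the high-fructose diet alone (HFrD) or standard chow, after 1 week of acclimatization on chow that all of them shared. NDGA is the main metabolite of the creosote bush. One label gives an NDGA dose of 2.5 g per g of diet and 16 weeks of feeding, while the series text gives 2.4 g per kg and 8 weeks. Each diet also has a group whose label adds the letters INS (HFrD-NDGA-INS, HFrD-INS and chow-INS), and neither labels nor methods explain INS. RNA of the rats of a group was pooled before labelling, so the 3 arrays of a group are repeats of 1 pool, and every p-value below measures the spread between arrays and not between rats. The age of the rats and the hour of tissue collection were not given in the sources used here.

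Across the 18 liver arrays 52.4% to 61.8% of probes were detected (detection p under 0.05) and the median intensity was 79 to 153. All 8 hepatocyte markers were detected on every liver array. Intensities are given as deposited, in arbitrary units, after background subtraction and without scaling between arrays. Log2 changes are differences of group means after quantile normalization, with values under 16 set to 16. They are given with their standard error (SE) and limma's Benjamini-Hochberg adjusted p over all 19791 genes, with a threshold of 0.05 for a call.

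The reference promoters of 3 of the 4 genes are shown because SHP acts on this pathway through LRH-1 (*Nr5a2*), which binds sites built around the letters CAAGG. The sequences are the 250 bases before the annotated start in RefSeq's GRCr8 rat assembly, written 5′ to 3′ on the strand of the gene, and the promoter of *Cyp7a1* is not shown. They lie at chr8:130457593-130457842 on the minus strand (*Cyp8b1*), chr5:151062910-151063159 on the plus strand (*Nr0b2*) and chr9:83713282-83713531 on the plus strand (*Cyp27a1*). Capitals mark every match on either strand to CAAGG, to the longer CAAGGNC that contains it, and to the E-box CACGTG, the letters bound by the clock factors CLOCK and BMAL1.
Cyp8b1: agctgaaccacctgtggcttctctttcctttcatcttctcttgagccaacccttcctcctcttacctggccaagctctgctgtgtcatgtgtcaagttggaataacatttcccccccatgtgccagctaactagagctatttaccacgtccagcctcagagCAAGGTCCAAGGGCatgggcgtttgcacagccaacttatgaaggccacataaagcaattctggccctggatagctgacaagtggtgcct
Nr0b2: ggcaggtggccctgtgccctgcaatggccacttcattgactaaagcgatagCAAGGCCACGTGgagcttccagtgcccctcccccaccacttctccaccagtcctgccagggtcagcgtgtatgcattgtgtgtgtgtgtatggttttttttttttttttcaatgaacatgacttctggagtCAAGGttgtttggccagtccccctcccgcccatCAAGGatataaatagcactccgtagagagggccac
Cyp27a1: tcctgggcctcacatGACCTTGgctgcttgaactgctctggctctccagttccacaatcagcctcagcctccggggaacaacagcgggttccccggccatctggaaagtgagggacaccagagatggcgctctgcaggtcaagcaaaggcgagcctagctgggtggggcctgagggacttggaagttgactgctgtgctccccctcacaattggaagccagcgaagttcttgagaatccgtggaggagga

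The *Cyp8b1* window held 2 matches to CAAGGNC, one directly after the other, from 89 to 76 bases before the start. The *Nr0b2* window held 3 matches to CAAGG, which begin 199, 68 and 35 bases before the start, and the first of them is also a CAAGGNC and overlaps the only CACGTG of these 3 windows, 193 to 188 bases before the start. The *Cyp27a1* window held 1 match to CAAGGNC, on the opposite strand, 235 to 229 bases before the start. Such matches are common. Of 33469 promoter windows of the same length in the reference, 46.3% held CAAGG, 15.8% held CAAGGNC and 5.59% held CACGTG on either strand. A match is a run of letters in the reference, and binding was not measured.

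*Cyp7a1* was the gene of this pathway that the diets moved most. HFrD had less of it than chow, and HFrD-NDGA had more than HFrD. Both held without and with INS, and the arrays did not overlap in any of these comparisons. Intensities were 1795, 1797 and 1533 on HFrD-NDGA, 378, 370 and 410 on HFrD, and 2574, 2523 and 2990 on chow. The HFrD arrays thus sat far below the other groups without INS, and the HFrD-NDGA arrays lay between HFrD and chow. On HFrD *Cyp7a1* was 7.51-fold below chow, a log2 change of -2.91 (SE 0.07, adjusted p = 1.36e-11), the 4th lowest of the 19791 changes. On HFrD-NDGA it was 4.46-fold above HFrD, a log2 change of 2.16 (SE 0.07, adjusted p = 1.19e-10). Against chow the HFrD-NDGA level remained lower, by a log2 change of -0.75 (SE 0.07, adjusted p = 3.24e-06), a call that was lost when each array was centred on its median instead (-0.19, adjusted p = 0.401).

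With INS the gap between the top groups was narrower. Intensities of *Cyp7a1* were 4151, 4169 and 3334 on HFrD-NDGA-INS, 783, 831 and 701 on HFrD-INS, and 3391, 4095 and 3889 on chow-INS. The HFrD-NDGA-INS and chow-INS arrays overlapped in intensity, though not after normalization, where chow-INS was higher, and the HFrD-INS arrays lay far below both. HFrD-INS was 4.95-fold lower than chow-INS (log2 change -2.31, SE 0.07, adjusted p = 2.01e-10), and HFrD-NDGA-INS was 4.55-fold higher than HFrD-INS (2.18, SE 0.07, adjusted p = 1.53e-10). Between HFrD-NDGA-INS and chow-INS the difference of -0.12 (95% interval -0.27 to 0.03, adjusted p = 0.252) did not pass, but it did with median centring (-0.54, adjusted p = 0.0286).

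**Figure D1:**
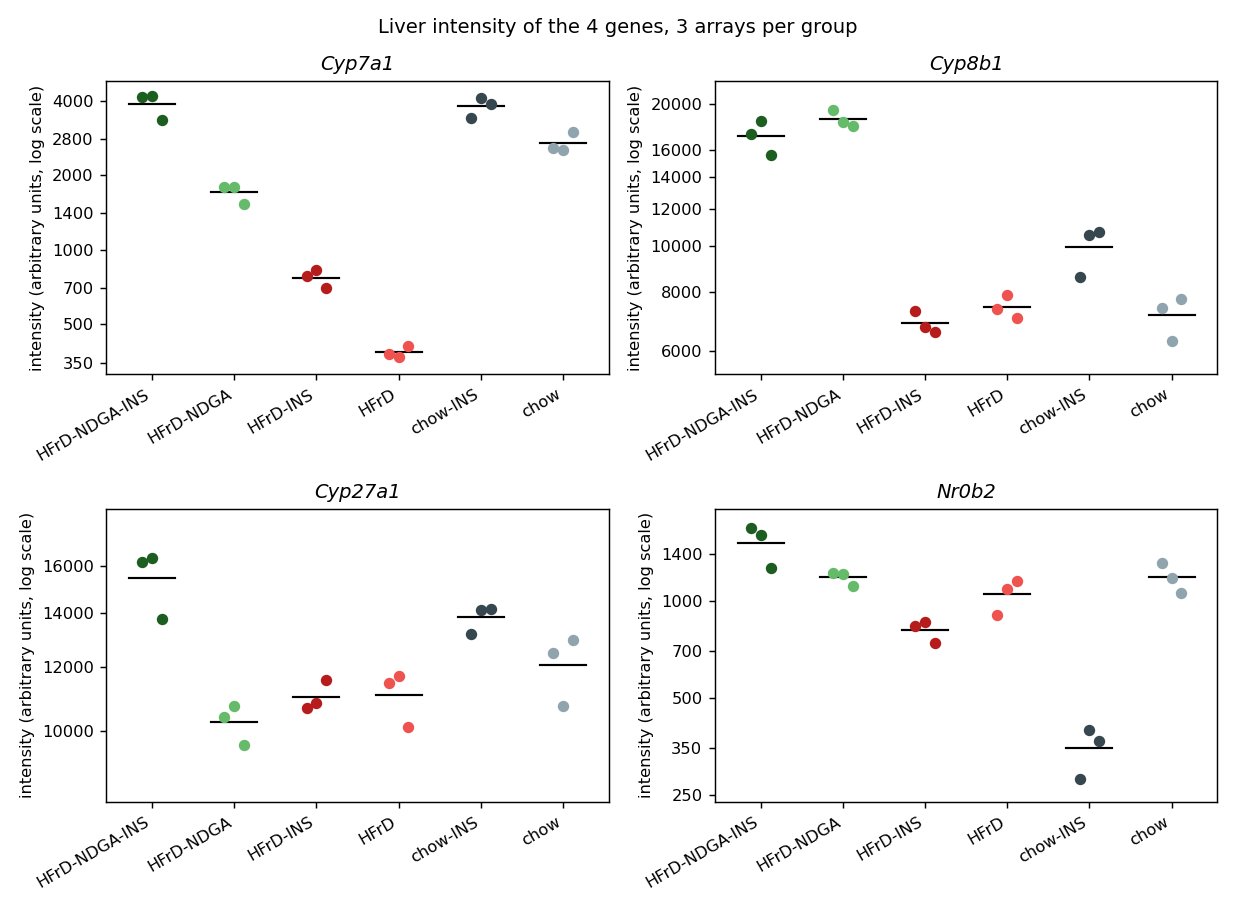
Intensity of *Cyp7a1*, *Cyp8b1*, *Cyp27a1* and *Nr0b2* on each of the 18 liver arrays (points, log axis, a separate range for each gene), 3 arrays per group, with the group mean as a line. *Cyp7a1* is lowest on HFrD (370 to 410), *Cyp8b1* is highest in both NDGA groups (15576 to 19459), and *Nr0b2* is lowest on chow-INS (280 to 399).

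Every diet had more *Cyp7a1* RNA signal in its INS group. The log2 change was 1.04 (SE 0.07, adjusted p = 9.2e-07) for HFrD-NDGA-INS against HFrD-NDGA, 1.01 (SE 0.07, adjusted p = 2.33e-06) for HFrD-INS against HFrD, and 0.41 (SE 0.07, adjusted p = 0.00422) for chow-INS against chow. The fall on HFrD was therefore smaller in the INS groups, by 0.60 on the log2 scale (SE 0.10, adjusted p = 0.00341). That difference was not called with median centring (0.11, adjusted p = 0.779) or without scaling (0.51, adjusted p = 0.135). The NDGA effect on *Cyp7a1* was not called different between INS and no INS (0.03, 95% interval -0.18 to 0.24).

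Tissue RNA cannot tell fewer hepatocytes from less RNA per hepatocyte. The 8 hepatocyte markers had a summed normalized intensity of 365689 to 383700 on HFrD-NDGA, 416254 to 421020 on HFrD and 364517 to 414506 on chow. The lowest HFrD sum was only slightly above the highest chow sum. Most of each sum comes from very bright probes, so these sums can hardly show a change in the share of hepatocytes. Of the 5 Kupffer cell markers 3 were called lower on HFrD than on chow, beside 7.67% of all genes. The 5 summed to 14931 to 15041 on HFrD, against 23328 to 24767 on chow. Both measured erythroid markers were detected on the HFrD arrays, with a sum of 2362 to 2534 there and 438 to 640 on the other liver arrays. The part of these cell types in the changes of the 4 genes was not tested.

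*Cyp8b1* went another way. It was higher on HFrD-NDGA than on either HFrD or chow, and HFrD itself was not called different from chow. Intensities were 19459, 18299 and 17971 on HFrD-NDGA, 7360, 7885 and 7053 on HFrD, and 7400, 6296 and 7733 on chow, so that all HFrD-NDGA arrays lay above all others while HFrD and chow overlapped. HFrD-NDGA was 2.57-fold above HFrD (log2 change 1.36, SE 0.06, adjusted p = 1.85e-09) and 2.41-fold above chow (1.27, SE 0.06, adjusted p = 3.29e-09). The change between HFrD and chow was -0.09 (95% interval -0.22 to 0.03, adjusted p = 0.299). In the comparison in which *Cyp7a1* fell by 2.91 on the log2 scale, the interval of *Cyp8b1* thus reached no lower than -0.22.

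In the INS groups *Cyp8b1* had intensities of 17298, 18423 and 15576 on HFrD-NDGA-INS, 7268, 6736 and 6571 on HFrD-INS, and 8614, 10562 and 10708 on chow-INS. Here the 3 diets did not overlap. HFrD-NDGA-INS was 2.36-fold above HFrD-INS (log2 change 1.24, SE 0.06, adjusted p = 5.55e-09), and HFrD-INS was below chow-INS (-0.58, SE 0.06, adjusted p = 1.77e-05). HFrD-NDGA-INS was also above chow-INS (0.66, SE 0.06, adjusted p = 3.03e-06), a call lost with median centring (0.21, adjusted p = 0.315). The HFrD effect differed between INS and no INS by -0.48 (SE 0.08, adjusted p = 0.00411), the opposite sign to the difference for *Cyp7a1*. Between INS and no INS, *Cyp8b1* was higher on chow-INS than on chow (0.38, SE 0.06, adjusted p = 0.00202). On HFrD-NDGA-INS it was slightly lower than on HFrD-NDGA (-0.22, adjusted p = 0.0162), which was not called without scaling (-0.12), without array 1 of HFrD-NDGA (-0.20, adjusted p = 0.0615) or without array 1 of HFrD-NDGA-INS (-0.18, adjusted p = 0.0686). The change of -0.10 for HFrD-INS against HFrD did not pass (adjusted p = 0.438). The difference of the NDGA effect on *Cyp8b1* between INS and no INS was not called either (-0.12, adjusted p = 0.367), except with centring (-0.66, adjusted p = 0.0402).

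*Cyp27a1* was abundant in every liver group and moved least. Intensities were 10397, 10722 and 9599 on HFrD-NDGA, 11463, 11700 and 10102 on HFrD, and 12469, 10735 and 12957 on chow. The HFrD arrays overlapped both other groups in intensity, though not the chow arrays after normalization. The log2 change was -0.28 (SE 0.06, adjusted p = 0.00331) for HFrD against chow and -0.32 (SE 0.06, adjusted p = 0.000808) for HFrD-NDGA against chow, but both signs turned with median centring (0.17, adjusted p = 0.453, and 0.24, adjusted p = 0.249), which shifted the median of all genes by 0.23 and 0.31. Between HFrD-NDGA and HFrD the change was -0.03 (95% interval -0.15 to 0.09, adjusted p = 0.805).

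With INS the intensities of *Cyp27a1* were 16193, 16395 and 13759 on HFrD-NDGA-INS, 10684, 10830 and 11546 on HFrD-INS, and 13193, 14128 and 14167 on chow-INS. HFrD-INS lay below both other groups, which overlapped. Its log2 change against chow-INS was -0.41 (SE 0.06, adjusted p = 0.000289), and HFrD-NDGA-INS rose by 0.42 against HFrD-INS (SE 0.06, adjusted p = 0.000161), neither of them called with median centring (-0.43, adjusted p = 0.237, and 0.01, adjusted p = 0.969). The change of 0.01 between HFrD-NDGA-INS and chow-INS did not pass. HFrD-NDGA-INS was also 0.43 above HFrD-NDGA (adjusted p = 0.000235), and with it the NDGA effect differed between INS and no INS by 0.45 (SE 0.08, adjusted p = 0.00262). With median centring the first of these was 0.01 (adjusted p = 0.979) and the second -0.06 (adjusted p = 0.877). Neither HFrD-INS against HFrD (-0.02) nor chow-INS against chow (0.10, adjusted p = 0.228) passed, though the change for chow-INS was called with centring (0.67, adjusted p = 0.0187).

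The repressor *Nr0b2* was not called different between the diets without INS and differed widely with INS. Intensities were 1227, 1215 and 1120 on HFrD-NDGA, 907, 1094 and 1158 on HFrD, and 1318, 1185 and 1064 on chow, and these 3 groups overlapped in intensity. After normalization the HFrD-NDGA arrays lay above the HFrD arrays. The log2 change was -0.27 (95% interval -0.51 to -0.03, adjusted p = 0.106) for HFrD against chow, and of the alternatives run it passed only without array 3 of chow (-0.41, adjusted p = 0.0151). For HFrD-NDGA against HFrD it was 0.22 (adjusted p = 0.207), and for HFrD-NDGA against chow it was -0.05 (adjusted p = 0.813), which turned and was called with median centring (0.47, adjusted p = 0.0439). *Cyp7a1* fell 7.51-fold on HFrD in the comparison in which *Nr0b2* had the change of -0.27. Only RNA was measured, and the part of *Nr0b2* in that fall was not tested.

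On chow-INS *Nr0b2* stood apart from the other 5 liver groups. Intensities were 1689, 1610 and 1273 on HFrD-NDGA-INS, 837, 862 and 744 on HFrD-INS, and 280, 399 and 369 on chow-INS. The 3 groups did not overlap, and chow-INS was lower than every other liver array. *Nr0b2* was 3.24-fold lower on chow-INS than on chow (log2 change -1.69, SE 0.11, adjusted p = 3.27e-06), the 38th lowest of the 19791 changes. Against chow-INS, HFrD-NDGA-INS was 3.44-fold higher (1.78, SE 0.11, adjusted p = 1.25e-07) and HFrD-INS was 2.12-fold higher (1.09, SE 0.11, adjusted p = 2.23e-05). HFrD-NDGA-INS was above HFrD-INS by 0.69 (SE 0.11, adjusted p = 0.00077), which was not called with median centring (0.42, adjusted p = 0.102).

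The HFrD effect on *Nr0b2* differed between INS and no INS by 1.36 (SE 0.16, adjusted p = 0.000299), narrowly outside the threshold with median centring (1.02, adjusted p = 0.0563). The NDGA effect differed by 0.47 (adjusted p = 0.061), which did not pass but was called without scaling (0.72, adjusted p = 0.0295), without array 1 of HFrD (0.56, adjusted p = 0.0406) or without array 3 of HFrD-NDGA-INS (0.56, adjusted p = 0.0414). On the high-fructose diets *Nr0b2* was not called different between INS and no INS. The change was 0.14 (adjusted p = 0.437) for HFrD-NDGA-INS against HFrD-NDGA and -0.34 (adjusted p = 0.134) for HFrD-INS against HFrD, whose arrays did not overlap.

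**Figure D2:**
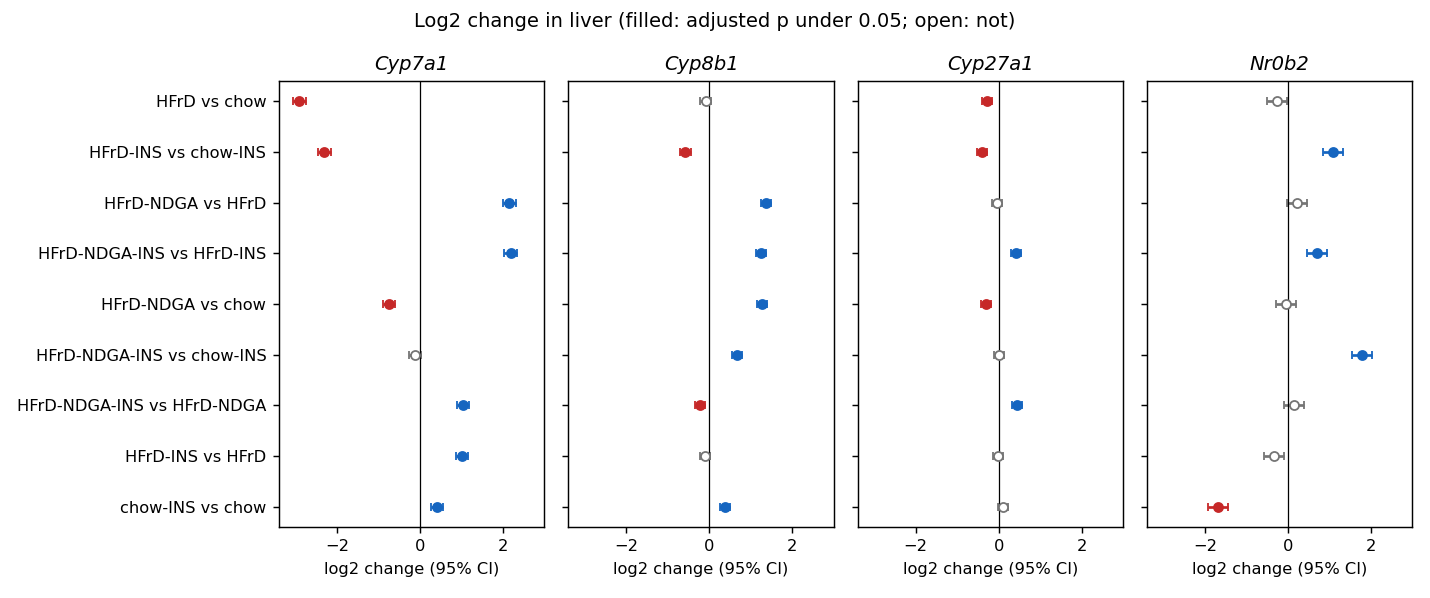
Log2 change with its 95% confidence interval for each gene in the 9 pairwise liver comparisons (rows), from the fit on all 18 liver arrays, with filled points for an adjusted p under 0.05. *Cyp7a1* ranges from -2.91 (HFrD against chow) to 2.18 (HFrD-NDGA-INS against HFrD-INS), while *Nr0b2* ranges from -1.69 (chow-INS against chow) to 1.78 (HFrD-NDGA-INS against chow-INS).

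Counted over the 4 genes, 2 were called for HFrD against chow, where 20.6% of all genes were called. The count was 2 for HFrD-NDGA against HFrD (19.6% of all genes) and 3 for HFrD-NDGA against chow (35.3%). All 4 were called for HFrD-INS against chow-INS (11.4%) and for HFrD-NDGA-INS against HFrD-INS (17.6%), and 2 for HFrD-NDGA-INS against chow-INS (20.6%). For INS against no INS the count was 3 on HFrD-NDGA (20.5%), 1 on HFrD (4.28%) and 3 on chow (12.2%). The difference of the HFrD effect was called for 3 (5.12%) and that of the NDGA effect for 1 (15.4%). These comparisons share groups, and with 4 genes a count adds little to the values given above.

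The repressor and the enzymes moved in opposite directions in some comparisons and not in others. On HFrD-INS against chow-INS *Nr0b2* rose by 1.09 while all 3 enzymes were lower. With median centring *Cyp27a1* was not called lower there (-0.43, adjusted p = 0.237). On chow-INS against chow *Nr0b2* had a change of -1.69 while *Cyp7a1* and *Cyp8b1* rose by 0.41 and 0.38. On HFrD-NDGA-INS against HFrD-INS it rose together with all 3 enzymes, although with median centring neither it nor *Cyp27a1* was called there. Pearson's r between the log2 levels of *Nr0b2* and those of *Cyp7a1*, *Cyp8b1* and *Cyp27a1* was -0.16, 0.25 and -0.27. Among the enzymes it was 0.78 for *Cyp7a1* with *Cyp27a1* and 0.50 for *Cyp7a1* with *Cyp8b1*. The 18 arrays are 6 pools measured 3 times each, so these values describe 6 points and say little of how the genes relate.

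**Figure D3:**
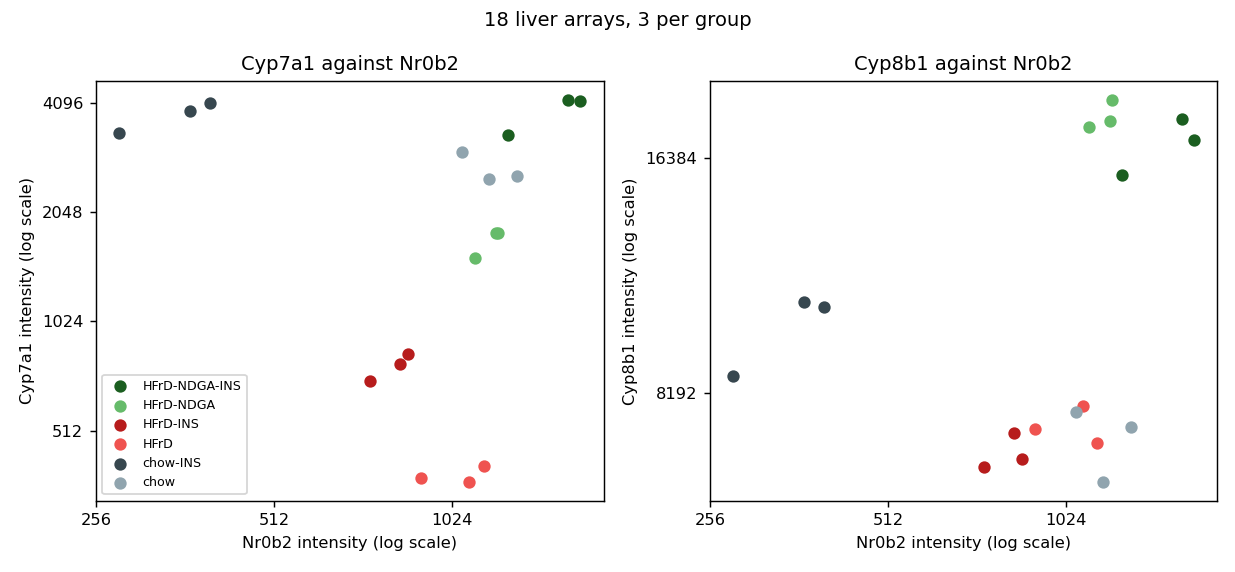
Intensity of *Cyp7a1* (left) and *Cyp8b1* (right) against that of *Nr0b2* on the 18 liver arrays, coloured by group, both axes logarithmic. The chow-INS arrays lie alone at the left (*Nr0b2* at 280 to 399), and *Cyp7a1* spans 370 to 4169 among the other arrays.

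The genes whose log2 levels followed each member most closely over the 18 liver arrays were sought among 12785 genes detected on every array of at least 1 liver group. For *Cyp7a1* they were *Got1l1* (r = 0.96), *Ptger3* (0.96), *RGD1565158* (0.95), *Mt2A* and *Slc13a4*. *Mt2A*, a metallothionein that binds zinc and copper, fell on HFrD by a log2 change of -3.47 against chow and rose by 2.87 on HFrD-NDGA against HFrD. *Cyp8b1* was followed by *Ces2c* (0.98), *Dhrs4*, *Crot*, *Fbp2* and *Rxrg*. *Crot*, the peroxisomal carnitine octanoyltransferase, rose by 1.93 on HFrD-NDGA against HFrD and by 2.04 on HFrD-NDGA-INS against HFrD-INS. *Cyp27a1* was followed by *Scarb1* (0.93), the HDL receptor, and by *Gbp2*, *Ier3*, *Slfn3* and *Pla2g12a*. *Nr0b2* was followed by *Ghitm* (0.88), *Igfbp2*, *Nr5a2* (0.84), *Slc25a47* and *LOC100360398*. *Nr5a2*, which encodes the LRH-1 that SHP binds, had intensities of 561 to 653 on HFrD-NDGA-INS, 413 to 423 on HFrD-INS and 299 to 346 on chow-INS. HFrD-NDGA-INS was called above chow-INS (0.49, adjusted p = 0.00116), where median centring moved the median of all genes by -0.22. Neither HFrD-NDGA-INS against HFrD-INS (0.25, adjusted p = 0.0635) nor HFrD-INS against chow-INS (0.25, adjusted p = 0.0885) was called. *Nr5a2* fell by a log2 change of -0.39 on chow-INS against chow, a call lost with median centring (-0.12, adjusted p = 0.589).

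The other enzymes of bile acid synthesis moved less than *Cyp7a1* and in both directions. Of 16 measured, HFrD had 4 higher and 6 lower than chow, where 12.9% of all genes were higher and 7.67% lower, with a median log2 change of -0.21 beside 0 for all genes, and with median centring the median was 0.19, 5 were higher and 2 lower. *Cyp7b1*, the oxysterol hydroxylase of the alternative pathway, was not well above background on HFrD (38 to 51), against 95 to 134 on chow, at least 1.25-fold lower on HFrD (adjusted p = 0.000102). *Cyp39a1*, another oxysterol hydroxylase, was at 81 to 95 on HFrD, against 71 to 81 and not well above background on chow. After normalization it was at least 1.36-fold higher on HFrD (adjusted p = 0.0228), more than these intensities show. Without scaling it was not called (adjusted p = 0.0566). *Slc27a2*, an acyl-CoA synthetase that activates bile acid precursors, rose by 0.36. *Hsd3b7*, which acts on the sterol ring right after *Cyp7a1*, had a change of -0.35 that turned to 0.07 with centring.

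On HFrD-NDGA against HFrD 5 of the 16 enzymes were higher and 4 lower (10.1% and 9.47% of all genes), with a median of 0.10. The 4 largest changes were rises that remained calls with both other scalings. *Abcd3*, which carries bile acid precursors into peroxisomes, rose by 1.13, the thioesterase *Acot8* by 1.01, *Hsd3b7* by 0.77, and *Hsd17b4*, the bifunctional enzyme of peroxisomal side chain shortening, by 0.71. The 4 that were lower were *Akr1c14*, *Scp2*, *Slc27a5* and *Baat*, of which *Slc27a5* activates and *Baat* conjugates bile acids. They changed by -0.47 to -0.41 and were not called with median centring.

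**Figure D4:**
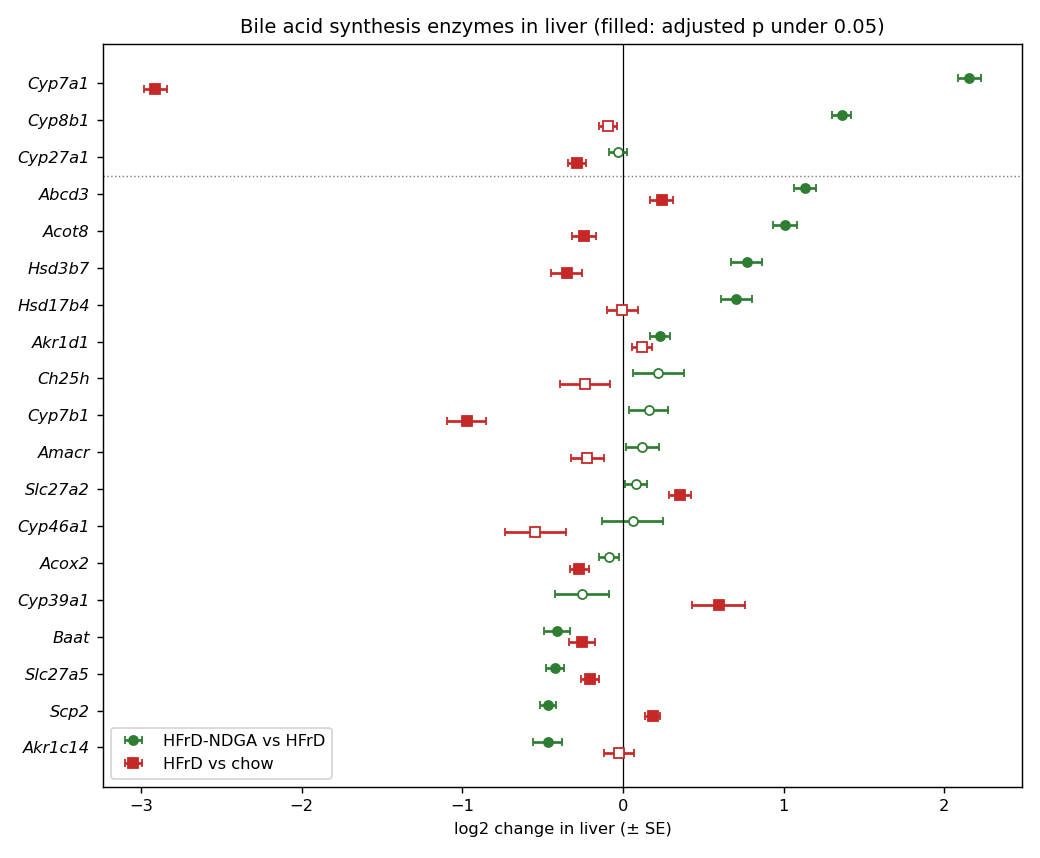
Log2 change (± SE, from limma) of the 3 enzymes described above (over the dotted line) and of 16 other enzymes of bile acid synthesis in liver, on HFrD-NDGA against HFrD (circles) and on HFrD against chow (squares), filled where the adjusted p was under 0.05. *Cyp7a1* lies outermost in both, at 2.16 and -2.91, and *Abcd3* has the highest value of the other 16 on HFrD-NDGA, at 1.13.

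Against chow-INS, HFrD-INS had 1 of these 16 enzymes higher and 4 lower (5.12% and 6.31% of all genes), led by *Cyp7b1*, which was at least 2.03-fold lower (38 to 48 on HFrD-INS, not well above background, against 111 to 164 on chow-INS). On HFrD-NDGA-INS against HFrD-INS 10 were higher and 1 lower (7.34% and 10.2% of all genes), with a median of 0.37, but with median centring 2 were higher and 4 lower. *Akr1d1*, the reductase of the sterol ring, had the largest of these changes, at 1.05, and it remained a call with both other scalings. Its intensities were 43047 to 48538 on HFrD-NDGA-INS and 20838 to 22223 on HFrD-INS.

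Among 22 regulators of bile acid synthesis HFrD had 5 higher and 3 lower than chow (median 0.05, with 20.6% of all genes called), while with median centring 7 were higher and the 3 lower ones were no longer called. *Onecut1*, the liver factor HNF6, had the largest change. Its intensities were 771 to 906 on HFrD-NDGA, 4394 to 4617 on HFrD and 806 to 929 on chow, so it was high where *Cyp7a1* was low. It rose by 2.29 on HFrD against chow and had a change of -2.32 on HFrD-NDGA against HFrD. With INS the values were 1242 to 1464 on HFrD-NDGA-INS, 3662 to 4218 on HFrD-INS and 2185 to 2432 on chow-INS, and chow-INS was above chow by 1.43 although *Cyp7a1* was above chow there too. *Nr1i3*, the xenobiotic receptor CAR, followed NDGA in both settings, with intensities of 1659 to 2189 on HFrD-NDGA, 486 to 510 on HFrD and 783 to 850 on chow, a rise of 1.96 on HFrD-NDGA against HFrD and of 1.95 on HFrD-NDGA-INS against HFrD-INS. Its change of -0.76 on HFrD against chow was lost with centring (-0.44, adjusted p = 0.0833). *Rxra*, the shared partner of these receptors, rose by 0.70 on HFrD against chow at intensities of 93 to 118 against 77 to 81. The chow values were near the lowest detected intensities of those arrays (78 to 91), and the change is more than these intensities show. *Prox1*, a corepressor of LRH-1, had a change of -0.53 that was not called with either other scaling.

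On HFrD-NDGA against HFrD 6 regulators were higher and 2 lower (19.6% of all genes called), with 4 and 2 under each of the other scalings. Beside *Onecut1* and *Nr1i3* the largest changes were those of *Foxa2*, a liver pioneer factor (-1.10), and of *Ppara*, the fatty acid receptor, which represses *Cyp7a1* in rodents when activated by fibrates (0.83). *Ppara* rose by 1.46 on HFrD-NDGA-INS against HFrD-INS, with intensities of 1375 to 1658 against 456 to 491. The bile acid receptor FXR (*Nr1h4*) ran from 379 to 534 on HFrD-NDGA, 821 to 915 on HFrD and 441 to 716 on chow, and its changes of -0.77 and 0.68 for HFrD-NDGA against HFrD and HFrD against chow did not pass. The receptor for the intestinal signal FGF15, *Fgfr4*, had 416 to 457, 481 to 599 and 513 to 768 in the same groups, with no call for HFrD-NDGA against HFrD or for HFrD against chow.

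Of 16 transporters of bile acids and bile lipids 15 were measured. On HFrD against chow 7 were lower, beside 7.67% of all genes, with a median of -0.28, and 3 were not above background in either group. With median centring 2 of the 7 were still called lower and the list's median was 0.09. These 2 were *Abcg5*, which exports sterols into bile with *Abcg8*, and *Abcb4*, which exports phosphatidylcholine. *Abcg5* followed the pattern of *Cyp7a1* without INS, at 546 to 623 on HFrD-NDGA, 165 to 197 on HFrD and 570 to 727 on chow, with a log2 change of -1.82 on HFrD against chow and a rise of 1.76 on HFrD-NDGA against HFrD. *Abcb4* had 612 to 667 on HFrD-NDGA, 570 to 665 on HFrD and 1063 to 1288 on chow, a change of -1.05 on HFrD against chow. HFrD-NDGA was not called different from HFrD (0.16), and its change against chow of -0.89 was lost with median centring (-0.40, adjusted p = 0.0589). *Slco1a4*, an uptake carrier, and *Abcc4*, a basolateral exporter, had changes of -0.59 and -0.50, neither called with centring.

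On HFrD-NDGA against HFrD 4 transporters were higher and 3 lower (median 0.13, with 19.6% of all genes called). The basolateral exporters *Abcc3* and *Abcc4* rose by 1.37 and 0.97, and the hepatocyte uptake carrier *Slco1b2* had a change of -1.02. *Slco1b2* had intensities of 2042 to 2868 on HFrD-NDGA and 4964 to 5065 on HFrD. With INS it did not follow, since HFrD-NDGA-INS (4342 to 6463) was not called different from HFrD-INS (4134 to 4631, change 0.20).

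LXR is the oxysterol receptor that induces *Cyp7a1* in rodents. Of 9 genes listed as its targets *Abcg8* was detected in no liver group. HFrD had 2 of the 9 higher than chow, *Srebf1* by 0.72 and *Lpcat3* by 0.69, and *Abcg5* lower, a share near that of all genes (20.6%). On HFrD-NDGA 3 were higher than on HFrD (19.6% of all genes called), namely *Abcg5*, *Lpcat3* by 0.84 and *Nr1h3*, which encodes LXRα, by 0.33, the last not called with either other scaling.

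*Cyp7a1* is rhythmic in rodents, and DBP, a clock output factor, activates its promoter in the rat. Of 17 clock and clock output genes HFrD-NDGA had 8 higher and 5 lower than HFrD, beside 19.6% of all genes called in that comparison. *Dbp* had intensities of 3559 to 3948 on HFrD-NDGA, 579 to 655 on HFrD and 566 to 723 on chow, and rose by 2.64 on HFrD-NDGA against HFrD. *Nr1d1*, the repressor REV-ERBα, rose by 1.52 and ran from 1140 to 1238 on HFrD-NDGA, 410 to 425 on HFrD and 173 to 238 on chow. *Nfil3*, which opposes DBP, and *Bmal1*, the core activator, had changes of -2.18 and -1.18. On HFrD-NDGA-INS against HFrD-INS *Dbp* rose by 1.09 and *Nr1d1* by 0.86, while *Bhlhe40*, a repressor of the clock, had a change of -1.36. Between HFrD and chow *Dbp* changed by -0.06, which did not pass, while 4 of the 17 were higher and 4 lower (20.6% of all genes called), with *Per1* at 1.19 and *Per2* at -1.19. Without INS *Dbp* was thus not called different between HFrD and chow and was higher on HFrD-NDGA, as *Cyp8b1* was. With INS *Cyp8b1* was called lower on HFrD-INS than on chow-INS (-0.58, adjusted p = 1.77e-05). The part of the clock genes in the changes of the 4 genes was not tested.

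*Cyp7a1* is enriched near the central vein in rat liver. Of 8 pericentral markers HFrD had 1 higher and 3 lower than chow, and HFrD-NDGA had 3 higher and 3 lower than HFrD, beside 20.6% and 19.6% of all genes called. *Slc1a2*, a glutamate transporter of the pericentral layer, had the same directions as *Cyp7a1*, with changes of -0.97 on HFrD against chow and 1.93 on HFrD-NDGA against HFrD. *Oat*, another pericentral gene, had the opposite ones (0.46 and -1.31). Of 8 periportal markers 5 were lower on HFrD-NDGA than on HFrD, led by *Sds* (-1.01), with 1 of them still called under median centring.

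All 4 genes had their highest signal in liver. On chow the share of all genes called was 67.2% between liver and muscle and 66.4% between liver and adipose tissue, and all 4 were higher in liver in both comparisons. *Cyp7a1* was not detected on any muscle array or on any chow adipose array, and its liver signal was at least 28.7-fold above muscle and at least 38.2-fold above adipose tissue. Other adipose groups had weak signal, with detection on 3 of 3 HFrD-INS arrays (88 to 155) and on 2 of 3 arrays of both HFrD-NDGA and chow-INS. In adipose tissue HFrD-NDGA-INS, where no array detected it, was called lower than HFrD-INS (adjusted p = 0.00377, 26% of all genes called). The 8 hepatocyte markers summed there to 63878 to 68197 on HFrD-INS, 42369 to 44352 on HFrD-NDGA-INS and 43482 to 48927 on chow-INS. Their part in the adipose values with INS was not tested. *Cyp8b1* was higher in liver by log2 changes of 5.55 (SE 0.21) against muscle and 5.83 (SE 0.21) against adipose tissue. *Cyp27a1*, which many tissues express, had the smallest differences, 2.39 (SE 0.06) and 4.12 (SE 0.06). *Nr0b2* was 3.74 (SE 0.12) higher in liver than in muscle, where 1 of 3 chow arrays detected it, and at least 17.8-fold higher than in adipose tissue, where no array detected it (3 to 18).

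**Figure D5:**
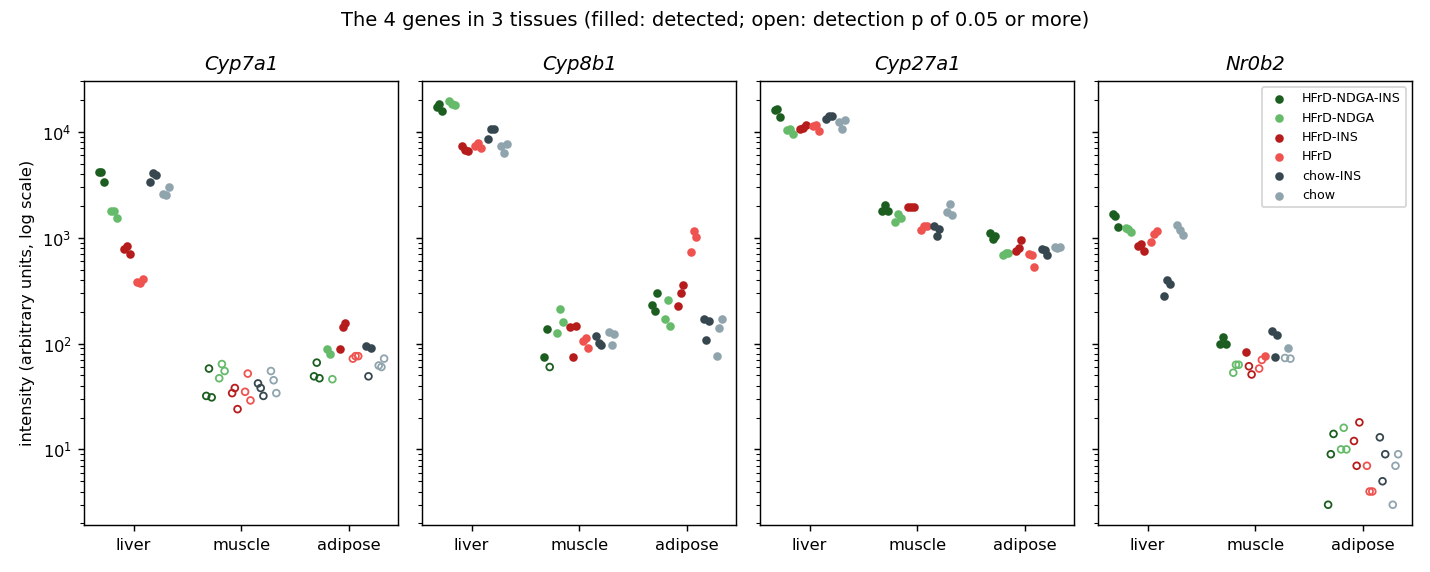
Intensity (log axis) of the 4 genes on all 54 arrays by tissue, with colours for the 6 groups and open points where the detection p was 0.05 or more. *Cyp27a1* is detected in every tissue (1042 to 2069 in muscle and 524 to 1117 in adipose tissue), and *Cyp8b1* in adipose tissue is highest on HFrD (733 to 1157).

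Outside the liver *Cyp8b1* and *Cyp27a1* were detected on all or nearly all arrays, and some of their diet effects there differed between INS and no INS. In adipose tissue *Cyp8b1* had intensities of 146 to 259 on HFrD-NDGA, 733 to 1157 on HFrD and 76 to 170 on chow, so that HFrD stood above both other groups. Its log2 change was 2.65 on HFrD against chow, where 54.5% of all genes were called, and -2.41 on HFrD-NDGA against HFrD, where 51.1% were. The adipose HFrD arrays stood apart in quality. Their lowest detected intensity was 114 to 116, against 64 to 93 on the other adipose arrays, and 53.6% to 55.0% of their probes were detected, fewer than on any other adipose array. The part of this in the change was not tested. The summed signal of the 8 hepatocyte markers was 45062 to 48232 on HFrD-NDGA, 44696 to 47604 on HFrD and 44600 to 47406 on chow in adipose tissue, with overlapping ranges.

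With INS the adipose changes of *Cyp8b1* were small. They were 0.71 on HFrD-INS against chow-INS (adjusted p = 0.0531, 24.2% of all genes called) and -0.26 on HFrD-NDGA-INS against HFrD-INS (adjusted p = 0.518, 26%). Between INS and no INS the HFrD effect on *Cyp8b1* differed by -1.94 (adjusted p = 0.000526, 43.6% of all genes called) and the NDGA effect by 2.15 (adjusted p = 0.000307, 37.2%). *Cyp27a1* in adipose tissue had 686 to 720 on HFrD-NDGA, 524 to 696 on HFrD and 806 to 820 on chow. Its change was -0.51 on HFrD against chow and -0.05 on HFrD-INS against chow-INS, the second not called, and the HFrD effect differed by 0.46 (adjusted p = 0.00149). NDGA changed it by 0.16 without INS, which did not pass, and by 0.23 with INS (adjusted p = 0.0242). These 2 NDGA effects were not called different from each other (0.06, adjusted p = 0.684).

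In muscle *Cyp27a1* had 1416 to 1656 on HFrD-NDGA, 1181 to 1293 on HFrD and 1651 to 2069 on chow, so that HFrD was below both. Its change was -0.77 on HFrD against chow (40.4% of all genes called) and 0.61 on HFrD-NDGA against HFrD (38.7%). With INS the sign of the HFrD effect was the opposite, 0.59 on HFrD-INS against chow-INS (adjusted p = 2.61e-06, 23.8%), and HFrD-NDGA-INS against HFrD-INS was not called (-0.03, adjusted p = 0.898, 15.4%). The HFrD effect on *Cyp27a1* thus differed by 1.36 (adjusted p = 6.13e-09, 40.4%) and the NDGA effect by -0.64 (adjusted p = 1.01e-05, 36.7%). *Cyp8b1* in muscle had 125 to 211 on HFrD-NDGA, 90 to 113 on HFrD and 96 to 129 on chow. The lowest detected muscle intensities were 65 to 89, so this signal was weak. *Cyp8b1* rose by 0.92 on HFrD-NDGA against HFrD (adjusted p = 0.0053), against -0.37 on HFrD-NDGA-INS relative to HFrD-INS (adjusted p = 0.353). The NDGA effect on it differed by -1.29 (adjusted p = 0.00618). The hepatocyte markers in muscle summed to 28418 to 29505 on HFrD-NDGA, 9905 to 10167 on HFrD and 17575 to 19407 on chow. Their part in these changes was not tested.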

How the data were processed

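RNA of the rats of a group was pooled in equal amounts by the authors, labelled with Cy5 and hybridized to Rat OneArray v1, 3 arrays per pool. The table deposited by the authors under the name normalized holds background-subtracted intensities in whole numbers, from -44 to 65506, without scaling between arrays. It also holds a detection p-value per spot, as deposited, whose method is not given in the sources used here. A second deposited table held equal values in all 1315332 cells and was not used. No array repeated another. Per the study's methods the authors normalized by quantiles and used ANOVA.

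Intensities of the 18 arrays of a tissue (9 chow arrays for the comparison of tissues) were quantile normalized with limma 3.58.1 in R 4.3.3, set to at least 16 and log2 transformed, with no filter on low values. Of 24358 probes 1175 had several symbols and 1913 none, and 2585 of 18773 single symbols were updated from RefSeq. The brightest probe stood for a gene. A linear model per gene with moderated variance (lmFit, eBayes) over all groups of a tissue gave changes, standard errors and Benjamini-Hochberg adjusted p-values. A probe detected on none of a group's 3 arrays gave only a lower bound of the fold, against the dimmest detected probe or its own value if higher. The fit was tested on simulated data. Figures were drawn with matplotlib 3.10.9 in Python 3.11.15.

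The 4 genes, the lists and the floor were chosen with earlier results of these data known. From each list the genes past the threshold with the largest changes were eligible to be named, at most 4 per comparison, beside the 5 genes with the highest Pearson's r with each of the 4. *Nr1h4*, *Fgfr4*, *Akr1c14*, *Scp2*, *Slc27a5*, *Baat* and *Nr1h3*, and the values of genes of the lists in further comparisons, were chosen after their values were seen. *Slco1a1*, *Sox9* and *Hbb* of the lists were not matched by symbol. The totals of regulators, clock genes, pericentral markers and LXR targets include *Gpbar1*, *Ppargc1a*, *Per3*, *Lgr5* and *Abcg8*, which were detected in no liver group. Alternatives were median centring, no scaling, other floors, an offset, a filter on detection, single probes, another variance model, arrays of the same INS status alone and leaving out each array. Slide and scan date were not given in the sources used here, so batches were not tested. The number of arrays limits the precision.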

Additional observations from a re-analysis of the deposited data

Results flagged for a closer look

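For 4 results in liver the diet effect differed between the groups with and without INS by a test of that difference in limma. The effect of HFrD against chow was less negative with INS for *Cyp7a1*, with a difference of 0.60 on the log2 scale (adjusted p = 0.00341), lost with median centring (0.11, adjusted p = 0.779) and without scaling (0.51, adjusted p = 0.135). It was more negative with INS for *Cyp8b1*, with a difference of -0.48 (adjusted p = 0.00411), called under both. For *Nr0b2* the difference was 1.36 (adjusted p = 0.000299; 1.02 and 0.0563 with centring), with 744 to 862 on HFrD-INS and 280 to 399 on chow-INS, against 907 to 1158 on HFrD and 1064 to 1318 on chow. The effect of HFrD-NDGA against HFrD on *Cyp27a1* was higher with INS by 0.45 (adjusted p = 0.00262), which became -0.06 with centring (adjusted p = 0.877). Outside the liver only *Cyp8b1* and *Cyp27a1* were followed up in this way. Of their differences 6 passed, and all 6 were called with centring too, in comparisons where 36.7% to 43.6% of all genes were called. In adipose tissue the HFrD effect differed by -1.94 for *Cyp8b1* and 0.46 for *Cyp27a1*, and the NDGA effect on *Cyp8b1* by 2.15. In muscle the HFrD effect on *Cyp27a1* differed by 1.36, and the NDGA effect by -0.64 for *Cyp27a1* and -1.29 for *Cyp8b1*. For *Cyp7a1*, which was near background in adipose tissue, the NDGA effect there was also called lower with INS (adjusted p = 0.027). The adipose HFrD-INS arrays, which enter that difference, had the highest hepatocyte marker sums of that tissue, and the part of this was not tested. Each group is 1 pool of RNA, so INS and a difference between pools cannot be told apart.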

How the results depend on the processing

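Of 44 liver results of the 4 genes 26 kept direction and side of the threshold under every alternative run, among them the changes of *Cyp7a1* on HFrD against chow and on HFrD-NDGA against HFrD, of *Cyp8b1* on HFrD-NDGA against HFrD, and of *Nr0b2* on chow-INS against chow. Floors of 32 and 64, an offset of 16, every probe tested on its own and a trended, robust variance changed 0 of 44. Fitting the 9 arrays of the same INS status alone changed 0 of 24 and gives no value for INS against no INS. Adjusted p-values are limma's, and the causes of the changes below were not tested.

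Median centring changed 15 of 44. For *Cyp27a1* it gave 0.17 (HFrD against chow), 0.24 (HFrD-NDGA against chow), -0.43 (HFrD-INS against chow-INS), 0.011 (HFrD-NDGA-INS against HFrD-INS), 0.67 (chow-INS against chow), 0.0067 (HFrD-NDGA-INS against HFrD-NDGA) and -0.058 (difference of the NDGA effect). For *Cyp7a1* it gave -0.19 (HFrD-NDGA against chow), -0.54 (HFrD-NDGA-INS against chow-INS) and 0.11 (difference of the HFrD effect). For *Cyp8b1* it gave 0.21 (HFrD-NDGA-INS against chow-INS) and -0.66 (difference of the NDGA effect, adjusted p = 0.0402, against -0.12). For *Nr0b2* it gave 0.47 (HFrD-NDGA against chow), 0.42 (HFrD-NDGA-INS against HFrD-INS) and 1.02 (difference of the HFrD effect). Centring moved the median of all genes by up to 0.34 (chow-INS against chow). Without scaling the values were -0.12 for *Cyp27a1* (HFrD against chow), -0.12 for *Cyp8b1* (HFrD-NDGA-INS against HFrD-NDGA), 0.51 for *Cyp7a1* (difference of the HFrD effect) and 0.72 for *Nr0b2* (difference of the NDGA effect). Among 12777 detected genes the same *Nr0b2* difference of 0.47 was called (adjusted p = 0.0436).

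Counts of genes called with centring were 2051 for HFrD-NDGA against HFrD, 617 for HFrD-INS against chow-INS, 5267 for HFrD-NDGA-INS against HFrD-INS, 6234 for HFrD-NDGA-INS against chow-INS, 9246 for chow-INS against chow, 116 for HFrD-INS against HFrD, 7078 for HFrD-NDGA-INS against HFrD-NDGA, and 376 and 5199 for the differences of the HFrD and NDGA effects, beside main counts of 3877, 2262, 3480, 4073, 2421, 848, 4062, 1013 and 3046. Without scaling they were 7456 for HFrD-NDGA-INS against chow-INS, 1103 for chow-INS against chow, 364 for HFrD-INS against HFrD, 6861 for HFrD-NDGA-INS against HFrD-NDGA and 332 for the difference of the HFrD effect. With an offset of 16 HFrD-INS against HFrD had 529.

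Leaving out each array of the groups compared gave 2587 (without HFrD array 3) to 3775 calls for HFrD against chow, 2249 (without HFrD-INS array 3) to 3964 for HFrD-NDGA-INS against HFrD-INS, and 2629 (without HFrD-NDGA-INS array 3) to 4280 for HFrD-NDGA-INS against chow-INS. For chow-INS against chow it gave 739 to 2434, with 739, 1468 and 1080 without chow-INS arrays 1, 2 and 3 and 1136 and 927 without chow arrays 1 and 3. For HFrD-INS against HFrD it gave 409 to 676, with 409, 417 and 503 without HFrD arrays 1, 2 and 3 and 445 and 435 without HFrD-INS arrays 1 and 3. HFrD-NDGA-INS against HFrD-NDGA had 2382 (without HFrD-NDGA array 2) to 5144, and 2555 without HFrD-NDGA-INS array 3. The difference of the HFrD effect had 541 (without HFrD-INS array 1) to 1064, with 641 without chow-INS array 1 and 622 and 626 without HFrD arrays 1 and 3. That of the NDGA effect had 2016 (without HFrD array 2) to 4078. For single genes the ranges were -0.41 (without chow array 3) to -0.18 for *Nr0b2* on HFrD against chow, -0.27 to -0.18 for *Cyp8b1* on HFrD-NDGA-INS against HFrD-NDGA, and 0.39 to 0.56 for the difference of the NDGA effect on *Nr0b2*. The lowest detected liver intensities were 67 to 91, and a change below that level was not measurable.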
